A study of Mus musculus with 4 samples.

Results

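Genes of sterol synthesis, fatty acid synthesis and sterol efflux were compared between Id2 KO and WT cDC2. The genes were taken from a list of 36 symbols, and each was read from the brightest of the probe sets annotated to that symbol alone. Such a probe set existed for 35 of the 36, out of 19938 genes named in this way. Acat2, a thiolase that supplies the mevalonate pathway, had none and has no value here. The list was divided by role into mevalonate enzymes (6 measured), sterol enzymes (11), sterol sensing and transport proteins (4), fatty acid enzymes (9) and efflux genes (5).

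The samples were type 2 conventional dendritic cells (cDC2), antigen-presenting cells sorted by flow cytometry from the spleens of chimeric mice, with 1 array for each sample. The Id2 KO group held 2 arrays from Id2 KO Zbtb46-GFP chimeric mice, and the WT group held 2 arrays from Zbtb46-GFP chimeric mice, so both groups carry the name of the Zbtb46-GFP reporter, which labels cells that use Zbtb46, a factor gene of conventional dendritic cells. Id2 encodes an inhibitor of E protein transcription factors. The deleted part of Id2, the reporter genotype of each sample, the age of the mice, the donor and host marrow of the chimeras and the number of mice behind each array were not given in the sources used here. P-values therefore measure only the spread between these arrays, which may be technical.

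Cells make cholesterol by first building mevalonate and isoprenoids from acetyl-CoA, then joining isoprenoids to squalene and closing and trimming the sterol ring. When sterols are scarce, Scap escorts the transcription factors SREBP-1 and SREBP-2 (Srebf1 and Srebf2) out of the endoplasmic reticulum, where the Insig proteins otherwise retain it, and they activate the genes of these enzymes and of fatty acid synthesis. When sterols are abundant, liver X receptors (LXR) activate the exporters Abca1 and Abcg1, the ubiquitin ligase gene Mylip and the lipoprotein genes Apoe and Pltp. In leukocytes, dividing cells draw on the same synthetic enzymes for new membrane.

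The promoters of some genes of the list are shown first, because many genes of the list are known targets of SREBP or LXR. Each is a window of 250 bases before to 50 after a gene's start, on the gene's strand, from RefSeq on GRCm38.p6. Capitals mark TCACNCCAC, a core of the sterol regulatory element, and CCAAT, the box bound by NF-Y, on either strand (so that CCAAT may stand as its reverse complement). Hmgcs1 and Pmvk (the first of its 2 windows) were higher in Id2 KO cDC2, Mvk acts between them in the pathway and did not pass the test, and Pltp was lower. The other Pmvk window and the windows of Fads2 and Apoe, which also changed, are not shown and hold neither of the marked motifs.
Hmgcs1, chr13:119690101-119690400, plus strand: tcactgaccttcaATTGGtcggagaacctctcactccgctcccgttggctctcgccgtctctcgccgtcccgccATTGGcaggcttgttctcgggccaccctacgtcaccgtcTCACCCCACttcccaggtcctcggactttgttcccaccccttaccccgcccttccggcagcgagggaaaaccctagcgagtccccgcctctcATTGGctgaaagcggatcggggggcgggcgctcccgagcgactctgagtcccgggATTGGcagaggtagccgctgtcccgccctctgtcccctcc
Pmvk, chr3:89454291-89454590, plus strand: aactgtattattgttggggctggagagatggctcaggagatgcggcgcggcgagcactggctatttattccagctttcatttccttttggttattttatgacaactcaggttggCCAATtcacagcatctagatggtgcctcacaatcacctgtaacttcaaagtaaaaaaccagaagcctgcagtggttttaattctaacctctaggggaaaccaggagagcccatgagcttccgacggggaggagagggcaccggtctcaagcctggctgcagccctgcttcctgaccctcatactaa
Mvk, chr5:114444019-114444318, plus strand: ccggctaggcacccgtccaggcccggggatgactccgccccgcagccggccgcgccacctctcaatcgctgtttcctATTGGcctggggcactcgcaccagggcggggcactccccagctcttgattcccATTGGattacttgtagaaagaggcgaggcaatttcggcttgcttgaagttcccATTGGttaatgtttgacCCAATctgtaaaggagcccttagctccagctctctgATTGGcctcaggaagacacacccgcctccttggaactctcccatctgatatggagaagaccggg
Pltp, chr2:164857659-164857958, minus strand: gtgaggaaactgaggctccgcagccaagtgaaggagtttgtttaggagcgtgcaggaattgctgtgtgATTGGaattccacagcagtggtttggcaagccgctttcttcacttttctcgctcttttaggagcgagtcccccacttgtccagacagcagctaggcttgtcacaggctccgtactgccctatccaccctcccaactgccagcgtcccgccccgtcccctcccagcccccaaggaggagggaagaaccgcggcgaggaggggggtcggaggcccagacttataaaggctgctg
The sterol element core was found in 1 of the 28 list genes that had a window, Hmgcs1, where it began 137 bases before the start, and in 1.44% of the 27025 genes with a window. CCAAT was found in 21 of the 28 and in 41.1% of all genes, among them 3 of the 5 list genes with a window that changed and 18 of the 23 others. The E-box letters CAGGTG, which E proteins can bind, were in 5 of the 28 and in 22.6% of all genes, and CAGCTG was in 4 of the 28 and in 18.3%. CACGTG was found in 7 of the 28 and in 8.09% of all genes, and the Sp1 box GGGCGG in 22 of the 28 and in 38.2%. Some genes had several windows, and a gene counted if any of them held the letters on either strand. These matches describe the windows and are not measured binding sites.

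Values below are log2 intensities of a gene's probe set, and differences are Id2 KO minus WT on that scale. Tests are limma's over the 11963 genes whose mean lay above the 40th percentile (log2 6.77), with adjusted p-values over all of them and a threshold of 0.05. Of the 35 genes, 33 were tested, and Idi1 and Abca1 lay below that level. The mean of 1 group alone lay below it for Scd1 and Fads2 (WT) and for Tm7sf2 (Id2 KO), so these 3 were tested only because of their level in the other group, and the sizes of their differences are uncertain.

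Before the lipid genes, several features of the arrays bear on every comparison. Median intensities were 128 and 132 in the Id2 KO arrays, against 134 and 130 in WT. Id2 itself stood at 8.71 and 8.97 in the Id2 KO arrays and at 9.14 and 9.08 in WT, a difference of -0.27 that did not pass (limma, adjusted p = 0.172), so a direction below rests on the labels; its single probe set may lie outside the deleted part. The cDC2 markers Itgax (CD11c), H2-Ab1 and Sirpa lay at 12.14 or higher on every array, and Clec10a and Mgl2 lay below the filter. Of 12 tested cDC2 markers, Itgam, Cd4, Klf4 and Zbtb46 fell (33.3%, beside 2.52% of all tested genes) and Esam rose (8.33%, beside 5.53%). Of the 12 differences 10 were negative, that of Sirpa (-0.23) among them, with a median of -0.26. The groups did not overlap for 8 that were lower in Id2 KO (66.7%, beside 22.8% of all tested genes). The marker lists of other cells differed as well, where 5.53% of all tested genes rose and 2.52% fell. Neutrophil markers were lower in 11 of 11 tested (summed intensity 1516 and 2429 in Id2 KO, 17895 and 18537 in WT), macrophage markers in 7 of 10 (2742 and 2795 in Id2 KO, 3737 and 4263 in WT), monocyte markers in 4 of 6 (2664 and 2829, against 3385 and 3554) and erythroid markers in 4 of 4 (677 and 708, against 1323 and 1564). B cell markers were higher in 8 of 8 (2551 and 2909 in Id2 KO, 1253 and 1242 in WT), markers of plasmacytoid dendritic cells in 4 of 8 (3061 and 2864, against 2557 and 2503) and cell cycle genes in 15 of 16 (22590 and 17924, against 10020 and 10077). No marker was at 0, since every probe set carries some intensity. Some markers counted here had 1 group mean below the filter level, so they were tested only because of their level in the other group. Examples are Mmp8 (5.49 in Id2 KO, 8.14 in WT), Zbtb46 (6.54 and 7.56) and Cr2 (7.54 and 6.26). The sizes of such differences are uncertain. Xist (6.67 and 6.68 in Id2 KO, 11.96 and 11.96 in WT) and the Y-linked Kdm5d (8.08 and 8.50, against 5.72 and 5.53) divided the arrays the same way, so genotype and these sex-linked levels cannot be told apart. Fewer cells of a type and less RNA per cell cannot be told apart in such bulk samples.

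Of the 33 tested lipid genes, 7 rose in Id2 KO cDC2 and 1 fell. Scd1, Apoe, Fads2, Hmgcs1, Pmvk, Fdft1 and Sqle were higher, by between 0.34 and 1.13, and Pltp was lower by 0.77. Of those that rose, Scd1 and Fads2 were tested only because of their level in Id2 KO. The share that rose was 21.2%, beside 5.53% of all tested genes, and the share that fell was 3.03%, beside 2.52%. The groups did not overlap for 17 genes that were higher in Id2 KO (51.5%, beside 27.9% of all tested genes) and for 5 that were lower (15.2%, beside 22.8%). The median difference was 0.13 over the 33 genes and 0.01 over all tested genes. The number of calls depended on single arrays: leaving out WT replicate 1 left 3 (Scd1, Apoe and Pltp), leaving out WT replicate 2 left 5, leaving out Id2 KO replicate 1 left 6, and leaving out Id2 KO replicate 2 gave 11. In these fits the group left with 1 array adds nothing to the estimate of spread, which comes from the other group's 2 arrays, moderated over all genes, and the lone array is assumed to vary like them.

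**Figure D1:**
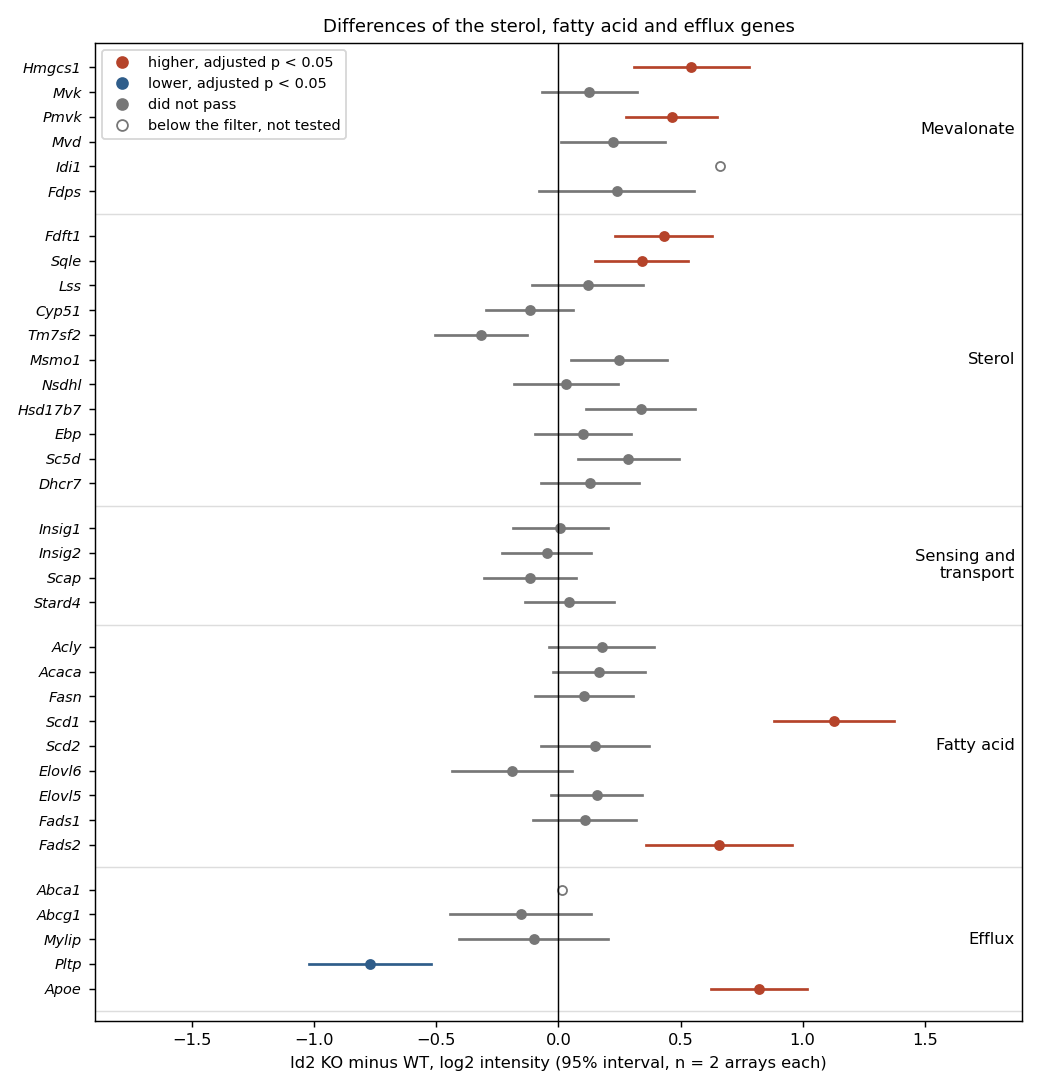
Difference of each listed gene (x axis, Id2 KO minus WT in log2 intensity, with 95% intervals of the limma fit, 2 arrays in each group), grouped by role from top to bottom. The 7 genes that rose lie in the mevalonate, sterol, fatty acid and efflux groups, Pltp is the 1 gene that fell, and open circles are Idi1 and Abca1, which were below the filter and not tested.

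Among the mevalonate enzymes, Hmgcs1 and Pmvk rose in Id2 KO cDC2. Of 5 tested, 2 rose (40%, beside 5.53% of all tested genes) and none fell. All 5 differences were positive (52.1% over all tested genes), with a median of 0.24 (0.01 over all tested genes). That median was 0.12 without Id2 KO replicate 1 and 0.43 without Id2 KO replicate 2. Hmgcs1, the synthase that joins acetyl-CoA to acetoacetyl-CoA, stood at 8.13 and 7.84 in the Id2 KO arrays and at 7.45 and 7.43 in WT. Both Id2 KO arrays were above both WT arrays, and the Id2 KO arrays lay farther from each other than the WT arrays did. The difference was 0.54 (95% interval 0.31 to 0.78, adjusted p = 0.0129, limma, n = 2 each), 1.46-fold. Pmvk, the kinase that adds the second phosphate to mevalonate, stood at 9.37 and 9.44 in Id2 KO and at 8.89 and 8.98 in WT. Its groups were well apart and its replicates close, with a difference of 0.46 (0.28 to 0.65, adjusted p = 0.00872). The call of Hmgcs1 was lost without WT replicate 1 (adjusted p = 0.0736) and without WT replicate 2 (0.0709), and that of Pmvk without WT replicate 1 (0.088).

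The other enzymes of this stretch did not pass. Mvk, which adds the first phosphate to mevalonate, differed by 0.13 (-0.07 to 0.32) and Mvd, the decarboxylase that follows Pmvk, by 0.22 (0.01 to 0.44). Both were higher in Id2 KO without overlap of the groups, as were 27.9% of all tested genes. Fdps, which builds farnesyl pyrophosphate, stood at 7.54 and 7.07 in Id2 KO and at 7.00 and 7.13 in WT, so that its groups overlapped. It was called without Id2 KO replicate 2. There its difference rested on the higher Id2 KO array alone, and the wide gap between its Id2 KO arrays did not enter the spread. Idi1, the isomerase between Mvd and Fdps, was at 7.09 and 6.78 in Id2 KO and at 6.36 and 6.18 in WT. This was the widest gap of the mevalonate enzymes (0.66), and both WT arrays lay below the filter level, as did its mean over the 4 arrays. Fitted without any filter, Idi1 passed (adjusted p = 0.0142). A dimmer Idi1 probe set differed by 0.50.

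**Figure D2:**
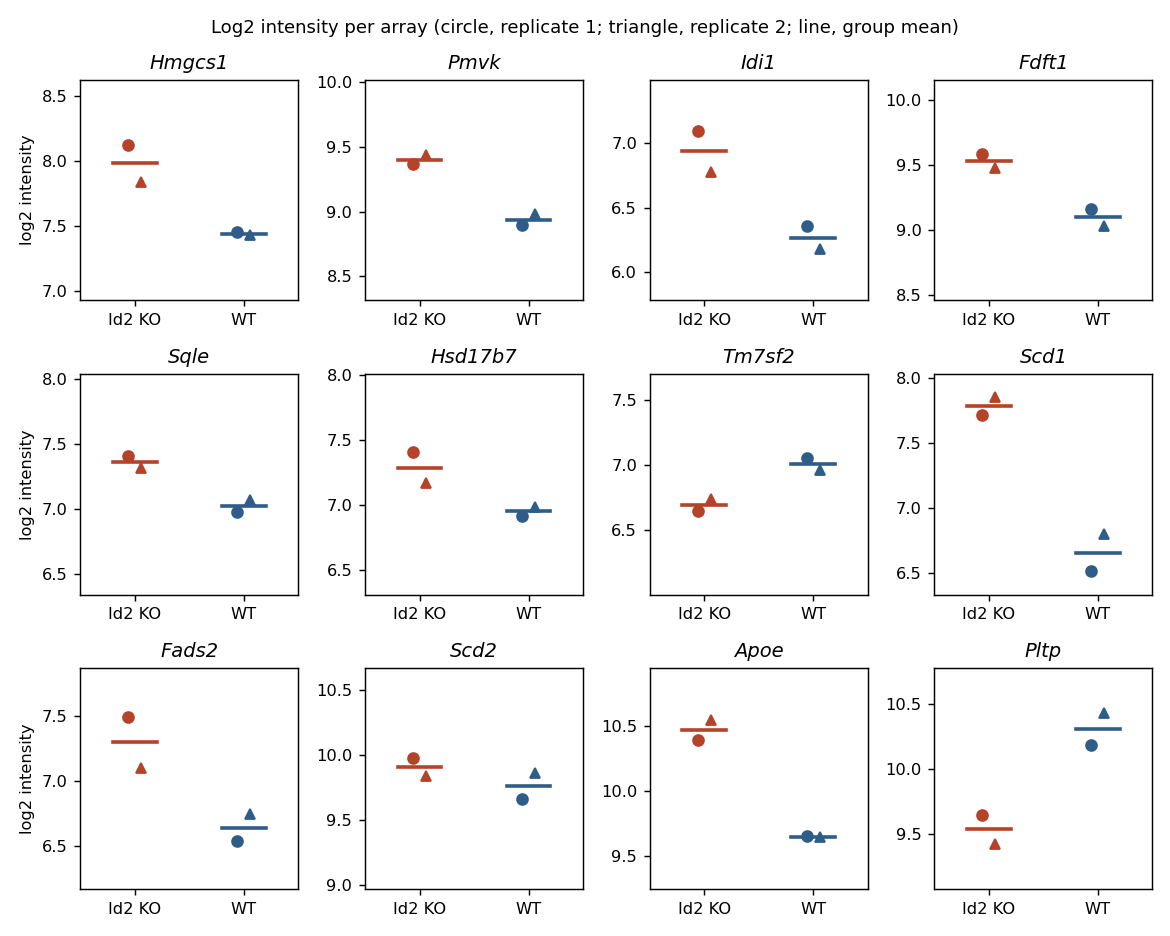
Log2 intensity (y axis, a span of 1.7 in every panel) of 12 listed genes on each array, with Id2 KO left of WT, a circle for replicate 1, a triangle for replicate 2 and a line at the group mean. Both Id2 KO arrays lie above both WT arrays for 9 genes, below them for Tm7sf2 and Pltp, and overlap with them for Scd2.

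Among the sterol enzymes, those that make and oxidise squalene rose. Of 11 tested, 2 rose (18.2%, beside 5.53% of all tested genes) and none fell. The median was 0.13 (0.10 without Id2 KO replicate 1 and 0.20 without Id2 KO replicate 2). Of the differences, 9 were positive (81.8%, beside 52.1% over all tested genes). The enzymes that passed, Fdft1 and Sqle, are the first of the sterol branch, and a difference between them and the later enzymes was not tested. Fdft1, squalene synthase, stood at 9.58 and 9.47 in the Id2 KO arrays and at 9.16 and 9.03 in WT. The groups did not overlap, and the difference was 0.43 (0.23 to 0.63, adjusted p = 0.0171). A dimmer Fdft1 probe set differed by 0.41. Sqle, the epoxidase that follows and limits the rate of the late pathway, stood at 7.41 and 7.32 in Id2 KO and at 6.97 and 7.07 in WT. Its difference of 0.34 (0.15 to 0.53) passed narrowly (adjusted p = 0.0409). Fdft1 lost its call without Id2 KO replicate 1 (0.067), WT replicate 1 (0.0525) and WT replicate 2 (0.123), and Sqle without the same arrays (0.15, 0.284 and 0.0988), without a filter (0.0776) and with the replicate block (0.107), a fit that pairs arrays of the same number.

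Enzymes that close and trim the ring did not pass, although Hsd17b7 (0.34) differed by about as much as Sqle (0.34). Lss, which folds oxidosqualene into lanosterol, differed by 0.12 with overlap. Cyp51, the demethylase that acts on lanosterol, stood at 7.77 and 7.79 in Id2 KO and at 7.88 and 7.92 in WT, lower in both Id2 KO arrays by a small and even margin (-0.12, -0.30 to 0.06). Tm7sf2, a reductase of the following step, was at 6.65 and 6.74 in Id2 KO and at 7.05 and 6.97 in WT. It was the lowest of the sterol enzymes in difference (-0.32, -0.51 to -0.13, adjusted p = 0.0538), and it passed with renewed quantile normalization (0.0464) and with the crossed replicate block (0.0288), a fit chosen after seeing the data that pairs each Id2 KO array with the WT array of the other number. Hsd17b7, the ketone reductase of demethylation, was at 7.41 and 7.17 in Id2 KO and at 6.92 and 6.99 in WT, a difference of 0.34 that did not pass (0.11 to 0.56, adjusted p = 0.0772) and did without Id2 KO replicate 2 (0.0184) and with the crossed block (0.0281). Msmo1, the oxidase of the same step (0.25), and Sc5d, a desaturase near the end (0.29), were higher in both Id2 KO arrays without passing, and Sc5d was called without Id2 KO replicate 2. Nsdhl (0.03), Ebp (0.10) and the last reductase, Dhcr7 (0.13), had intervals that included 0. Nsdhl and Ebp are on the X chromosome.

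Of the 16 tested cell cycle genes, 15 rose in Id2 KO cDC2 (93.8%, beside 5.53% of all tested genes), and they also differed between the Id2 KO arrays. The 16 cell cycle genes were all higher on Id2 KO replicate 1 than on replicate 2, by a median of 0.38. Of the 29 tested synthesis and sensing genes, of which 6 rose in Id2 KO, 22 were higher on replicate 1 (median 0.13), whereas over all tested genes it was 6631 of 11963 (median 0.02). The mevalonate enzymes had a median of 0.21 in this within-group difference, and the efflux genes -0.27. Among the 6 that rose, Hmgcs1, Fdft1, Sqle and Fads2 were higher on replicate 1, and Scd1 (-0.14) and Pmvk (-0.07) ran the opposite way. The part of cell division in these differences was not tested.

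The genes of sterol sensing and transport did not pass. Of 4 tested, 0 were called (8.04% of all tested genes were), and limma's adjusted p-values lay between 0.49 and 0.977. At that share a list this short would often hold no called gene. Insig1, which retains Scap when sterols are present and is itself a target of SREBP, stood at 8.56 and 8.42 in Id2 KO and at 8.47 and 8.50 in WT, with a difference of 0.01 (-0.19 to 0.20). The arrays of both groups interleaved. Insig2, a homologue with the same role, differed by -0.05 (-0.23 to 0.13), Scap by -0.12 (-0.31 to 0.07) and Stard4, a carrier of cholesterol between membranes, by 0.04 (-0.14 to 0.23). The upper ends of these intervals lay at or below 0.23, and 0 of the 4 had an unadjusted p under 0.05, beside 2473 of all 11963 tested genes. None of the 9 tested regulators on a further list was called by limma (beside the same 8.04%), and 0 had an unadjusted p under 0.05. Srebf1 differed by 0.16 (-0.03 to 0.35), Srebf2 by 0.09 (-0.13 to 0.31), Nr1h3, which encodes LXR alpha, by 0.01 (-0.26 to 0.27) and the protease gene Mbtps1, whose product cuts SREBP, by 0.05 (-0.13 to 0.23).

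Both fatty acid enzymes that rose were desaturases, and both were tested only because of their level in Id2 KO. Of 9 tested, 2 rose (22.2%, beside 5.53% of all tested genes) and none fell. The median was 0.16 (0.10 without WT replicate 1 and 0.22 without Id2 KO replicate 2). Of the differences, 8 were positive (88.9%, beside 52.1% over all tested genes). Scd1, a stearoyl-CoA desaturase that makes monounsaturated fatty acids, stood at 7.72 and 7.85 in the Id2 KO arrays and at 6.51 and 6.80 in WT. The groups were separated by more than either pair of replicates differed. The difference of 1.13 (0.88 to 1.37, adjusted p = 0.000326, limma, n = 2 each) passed with each array left out. The WT means of Scd1 and Fads2 were below the filter level. With the filter at the 60th percentile neither was tested, and no fatty acid enzyme was called. Scd2, which is on chromosome 19 like Scd1 and catalyses the same reaction, stood at 9.98 and 9.84 in Id2 KO and at 9.66 and 9.86 in WT. Its groups overlapped, with a difference of 0.15 (-0.07 to 0.37), and its interval lies below that of Scd1; the difference between these genes was not tested. Fads2, the first desaturase of polyunsaturated fatty acids, stood at 7.50 and 7.10 in Id2 KO and at 6.54 and 6.74 in WT. Its arrays did not overlap but were widely spaced in both groups, and the difference was 0.66 (0.36 to 0.96, adjusted p = 0.0164), lost without WT replicate 1 (0.13). Fads1, the next desaturase and also on chromosome 19, differed by 0.11 with overlap (-0.10 to 0.32).

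The enzymes that build the carbon chain did not pass. Acly, Acaca, Fasn and Elovl5 were higher on both Id2 KO arrays without overlap, as were 27.9% of all tested genes. Acly, which cleaves citrate to acetyl-CoA, differed by 0.18 (-0.04 to 0.39), the carboxylase gene Acaca by 0.16 (-0.02 to 0.35) and the synthase gene Fasn by 0.11 (-0.09 to 0.31). Fasn was at 9.47 and 9.30 in Id2 KO and at 9.27 and 9.29 in WT, with only Id2 KO replicate 1 clearly above the others. A dimmer Acaca probe set differed by 0.43. The elongase genes Elovl5 (0.16) and Elovl6 (-0.19), whose products lengthen fatty acids, did not pass. In all, 23 of the 33 genes had a difference below 0.3 in size and did not pass, with differences between -0.19 and 0.29 and limma's adjusted p-values between 0.101 and 0.977.

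The efflux genes moved in opposite directions. Of 4 tested, 1 rose and 1 fell (25% each, beside 5.53% and 2.52% of all tested genes). The median was -0.13 and turned to 0.074 without Id2 KO replicate 1. Apoe, the apolipoprotein that accepts exported lipid, stood at 10.39 and 10.55 in the Id2 KO arrays and at 9.65 and 9.64 in WT. The WT arrays were nearly equal and both Id2 KO arrays lay far above them, with a difference of 0.82 (0.63 to 1.02, adjusted p = 0.000502), 1.77-fold. Pltp, the protein that transfers phospholipids between lipoproteins, stood at 9.65 and 9.43 in Id2 KO and at 10.19 and 10.43 in WT. Both Id2 KO arrays lay below both WT arrays, and Pltp fell by 0.77 (-1.02 to -0.52, adjusted p = 0.00274), 1.71-fold lower. Both calls held with each array left out. Macrophages also make Apoe and Pltp, and macrophage markers were lower in 7 of 10 tested, a direction shared by Pltp and not by Apoe. Their part in these differences was not tested.

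Of the exporters, Abcg1 did not pass and Abca1 was not tested, and the ligase gene Mylip did not pass. Abcg1, which exports sterol to lipoprotein particles, stood at 8.72 and 9.09 in Id2 KO and at 8.96 and 9.15 in WT, with a difference of -0.15 (-0.44 to 0.13). Mylip, the ligase that marks lipoprotein receptors for degradation, stood at 10.42 and 10.86 in Id2 KO and at 10.68 and 10.80 in WT (-0.10, -0.41 to 0.20). For both genes the 2 Id2 KO arrays enclosed or overlapped the WT values, and Id2 KO replicate 1 was the lowest array. Abca1, the exporter to lipid-poor apolipoproteins, lay at 6.69 and 6.78 in Id2 KO and at 6.71 and 6.73 in WT, below the filter.

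**Figure D3:**
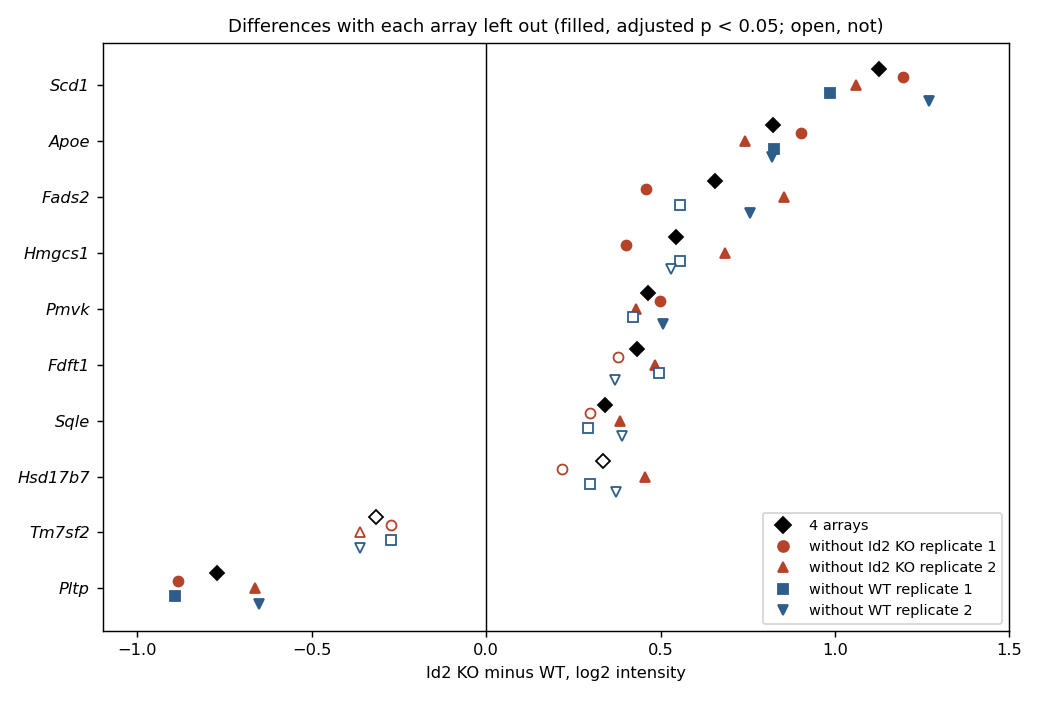
Difference of 10 listed genes (x axis, Id2 KO minus WT in log2 intensity) with all 4 arrays and with each array left out in turn, filled where limma's adjusted p was under 0.05. Scd1, Apoe and Pltp are filled throughout, and Fads2, Hmgcs1, Pmvk, Fdft1 and Sqle each have at least 1 open symbol. No gene changes sign, which leaving 1 array out cannot bring about here, since the groups of all 10 do not overlap.

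Of 43 tested genes on 4 further lists of the same pathways, 1 rose and 3 fell (2.33% and 6.98%, beside 5.53% and 2.52% of all tested genes). Of 13 tested genes of sterol handling, 0 were called by limma (8.04% of all tested genes were), with a median of -0.01. An unadjusted p under 0.05 was found for 3, a share near that of all tested genes (2473 of 11963). The nearest was Lbr, another sterol reductase that also anchors chromatin at the nuclear envelope, at 8.92 and 8.76 in Id2 KO and 8.52 and 8.51 in WT (0.32, 0.13 to 0.52, adjusted p = 0.0576). Npc2, which passes cholesterol out of lysosomes, differed by -0.25 (-0.43 to -0.07) and Npc1, its membrane partner, by 0.01 (-0.18 to 0.20). Of 16 tested genes of fatty acid activation, elongation and triglyceride synthesis, 2 fell (12.5%, beside 2.52% of all tested genes) and none rose.

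Both of these belong to the last steps of triglyceride synthesis. Lpin1, the phosphatase that makes diacylglycerol, stood at 6.98 and 6.52 in the Id2 KO arrays and at 7.90 and 8.07 in WT. The groups were far apart, and Lpin1 fell by 1.23 (-1.56 to -0.91, adjusted p = 0.000828). Its mean in Id2 KO was just below the filter level, so it was tested only because of its level in WT and the size is uncertain. Dgat1, which adds the last acyl chain, stood at 8.93 and 8.60 in Id2 KO and at 9.23 and 9.45 in WT. It fell by 0.57 (-0.85 to -0.29, adjusted p = 0.0217), a call lost without Id2 KO replicate 2 (0.0548), without WT replicate 2 (0.136) and with the replicate block (0.0648). Dgat2, which catalyses the same step, differed by -0.20 without passing (-0.38 to -0.02, adjusted p = 0.189). Gpam, the first enzyme of the route, differed by 0.16 (-0.03 to 0.34).

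Of 5 tested genes of further efflux and lipid uptake, 1 rose and 1 fell (20% each, beside 5.53% and 2.52% of all tested genes). Plin2, the coat protein of lipid droplets, stood at 8.78 and 8.69 in Id2 KO and at 9.18 and 9.35 in WT. It fell by 0.53 (-0.74 to -0.33, adjusted p = 0.0069), with the call lost without WT replicate 2 (0.0601). Abca7, a transporter related to Abca1, stood at 9.98 and 10.13 in Id2 KO and at 9.50 and 9.65 in WT. It rose by 0.48 (0.27 to 0.69, adjusted p = 0.0143), with the call lost without WT replicate 1 (0.132). Scarb1, a receptor for lipoprotein lipid, differed by 0.28 (0.08 to 0.48, adjusted p = 0.0971), and the LXR targets Lpcat3 (-0.02) and Smpdl3a (-0.21) did not pass. Neutrophil, macrophage and monocyte markers were lower in the same arrays as Lpin1, Dgat1 and Plin2, and their part in these falls was not tested.

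**Figure D4:**
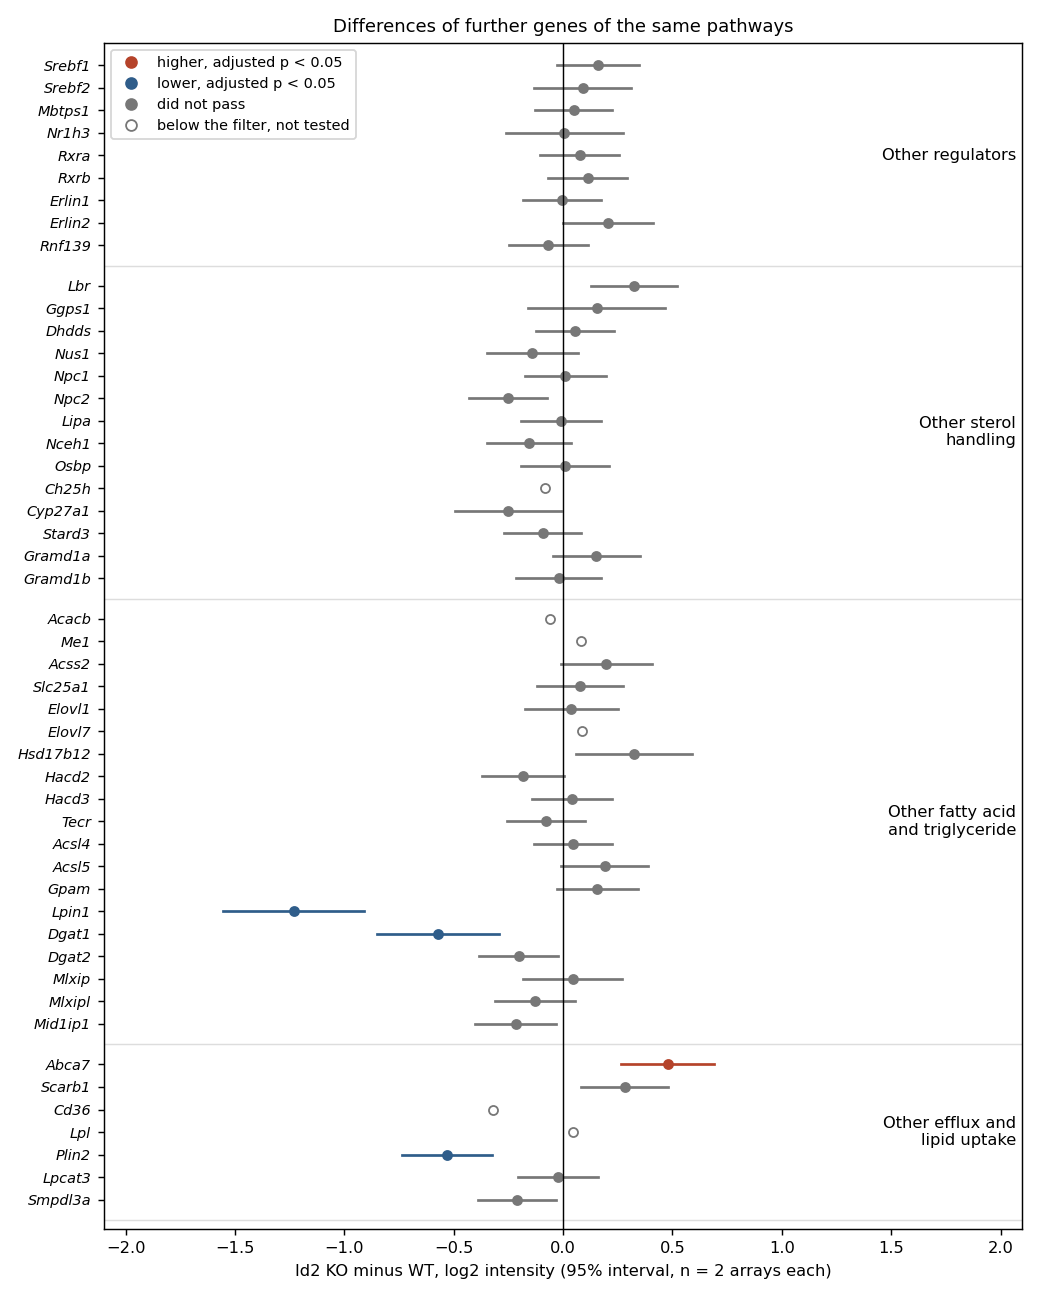
Difference of further regulators, sterol, fatty acid and efflux genes (x axis, Id2 KO minus WT in log2 intensity, with 95% intervals of the limma fit, 2 arrays in each group). Lpin1, Dgat1 and Plin2 lie left of 0 and Abca7 right of it past the threshold, and open circles are genes below the filter.

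Linear intensities summed over each role were higher on both Id2 KO arrays in 3 of 5 cases. The 6 mevalonate enzymes summed to 1937 and 1764 in the Id2 KO arrays, against 1431 and 1444 in WT. The 11 sterol enzymes summed to 3640 and 3422 in Id2 KO and to 3128 and 3070 in WT, and the 9 fatty acid enzymes to 6455 and 6138 in Id2 KO and to 5361 and 5773 in WT. The arrays did not overlap in these 3 sums. Of all single tested genes, 27.9% were higher and 22.8% lower in Id2 KO without overlap. The largest part of the fatty acid sums was Elovl5, which did not pass (2616 and 2649 in Id2 KO, 2277 and 2451 in WT). Scd1, which did, was a small part (210 and 231, against 91 and 111). The 4 sensing and transport genes summed to 1886 and 1868 in Id2 KO and to 1910 and 2032 in WT, so that both Id2 KO arrays lay below both WT arrays. Most of each sum was Scap, which did not pass (1030 and 1058 in Id2 KO, 1089 and 1178 in WT). The 5 efflux genes summed to 4036 and 4692 in Id2 KO and to 4208 and 4642 in WT, where the Id2 KO arrays enclosed the WT arrays. With 2 arrays in each group an exact permutation test of such a sum cannot go below a two-sided p of 0.333, so no test is given.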

How the data were processed

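Expression was measured on Affymetrix arrays in 2 Id2 KO and 2 WT samples of cDC2. Per the submitters' processing notes, Affymetrix Expression Console and RMA were used, and the deposited table gives a linear intensity for each probe set on each array, from 5.19 to 18624. RMA makes array distributions similar, so a change in total RNA per cell is largely removed. Per the labels' protocols, RNA was amplified with a NuGen Ovation PicoSL system, which can compress some levels. Arrays have no read depth, and their number limits the precision. Calls above background were not used here.

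The log2 of each intensity was taken with no pseudocount. Among 28853 probe sets the platform annotation gave 21789 a single symbol and 1621 more than 1, did not list 5443, and 21698 of the first kind matched the RefSeq gene table of GRCm38.p6 by gene ID. The brightest probe set stood for a gene, and 11963 of 19938 genes passed the intensity filter. Id2 KO minus WT was estimated by limma 3.58.1 under R 4.3.3 (functions lmFit and eBayes, 2 residual degrees of freedom, prior SD 0.0887), two-sided, with Benjamini-Hochberg adjustment. The procedure was tested on simulated data. Intervals are not adjusted for the number of genes.

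Members, lists and tests were chosen with earlier results of these data known. Values per array are given for listed genes past the threshold or with a difference of at least 0.3, for genes of the 4 further lists past the threshold, and for others singled out after their values were seen. Alternatives changed the filter, the probe sets, the scaling, the pseudocount, the prior, the replicate block and the arrays. The replicate numbers are not said to mark shared mice or days.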

Additional observations from a re-analysis of the deposited data

How the results depend on the processing

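With each array left out, where the spread comes from the 2 arrays of the other group, the genes called ranged from 459 to 1171 (962 with all arrays) and the listed genes called from 3 to 11 (8 with all arrays). The median difference ranged from 0.12 to 0.43 for mevalonate enzymes, from 0.10 to 0.20 for sterol enzymes, from 0.10 to 0.22 for fatty acid enzymes, from -0.060 to 0.017 for sensing and transport genes, and from -0.33 to 0.074 for efflux genes.

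With the filter at the 60th percentile 5 of 23 listed genes were called, since Scd1, Fads2 and Sqle were no longer tested, and the medians were 0.34 (mevalonate) and 0.17 (sterol). With no filter the mevalonate median was 0.35, Idi1 was called and Sqle was not, leaving 8 called of 35. Renewed quantile normalization gave medians of 0.15 (sterol) and -0.071 (sensing and transport), and called Tm7sf2 as well, which made 2 lower. It moved the share of higher calls over all genes to 59.3%, against 68.7% as deposited, and median-centred arrays moved it to 72.5%, with a sterol median of 0.15. The causes of these shifts were not tested. Averaging the probe sets of a gene, a pseudocount of 16 and a prior spread by intensity left the same 8 listed genes called.

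With the replicate block, 684 genes and 7 listed genes were called, Sqle being lost. Replicate differences of the Id2 KO and WT arrays correlated at -0.14 over the tested genes, and the crossed replicate block, added after seeing the data, called 1380 genes and 10 listed genes, adding Hsd17b7 and Tm7sf2. No called lipid gene changed direction under any of the 13 alternatives in which it was tested. For most alternatives this was fixed in advance. The groups of these genes did not overlap, so leaving 1 array out cannot reverse a sign. The filters, the prior and the replicate blocks leave a difference as it is. Among genes that did not pass, 4 of the 33 listed genes (Nsdhl, Insig1, Abcg1 and Mylip) and 15 of the 43 on further lists, with differences of at most 0.15 in size, took the opposite sign under at least 1 alternative. The number of arrays limits the detection of small differences.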
